A study of Rattus norvegicus with 46 samples.

Results

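Csrp2, Csrp3, Ankrd1, Sorbs2, Tcap, Des and Ttn, genes of the cardiac Z-disc and of the response to stretch, were followed through 5 rat models of cardiac hypertrophy. A probe set was taken when its platform annotation named 1 of these genes and no other, which gave 9 of the 8740 probe sets measured: 3 for Sorbs2 and 1 for each of the other 6 genes. RNA came from left ventricles of Wistar rats and was read on 46 oligonucleotide arrays, 1 RNA pool per array, so the p-values below rest on how far pools differ, and animal-to-animal spread is not seen. The hypertrophic groups were pressure overload by a clip on the ascending aorta (AB) after 6, 12 and 16 weeks with 2 arrays each and after 30 weeks with 4, myocardial infarction by ligation of the left coronary artery (MI) after 3 and 9 weeks with 4 arrays each, volume overload by an aortocaval fistula (shunt) after 3 and 8 weeks with 2 arrays each, and subcutaneous angiotensin II (AngII) or the thyroid hormone analogue Ditpa for 2 weeks with 2 arrays each. Every surgical group had 2 arrays of sham-operated rats of the same model and week. AngII and Ditpa shared 2 vehicle (saline) arrays. The labels call the Ditpa treatment an infusion and the study's methods call it daily injections. In the infarction model the scar was removed before RNA extraction. A last group of 2 arrays came from neonatal left ventricle, harvested 3 days after birth, and was set against the 18 adult sham and vehicle arrays.

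The Z-disc anchors the thin filaments of neighbouring sarcomeres and is a site where muscle cells sense load. Titin, encoded by Ttn, spans the sarcomere from the Z-disc to the M-band, and telethonin (Tcap) caps its end there. The LIM proteins Csrp2 and Csrp3 and the ankyrin repeat protein Ankrd1 move between the sarcomere and the nucleus, Sorbs2 is an adaptor at the Z-disc, and desmin (Des) filaments tie neighbouring Z-discs to each other and to the cell membrane.

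For 3 of the 7 genes the reference table held the sequence around the transcription start (RefSeq, assembly GRCr8; 300 bases, most of them before the start). The table held no such sequence for the other members, and all those it held are shown, whatever the genes did in hypertrophy. Capitals mark matches to the letters of motifs known from muscle promoters.
Csrp2, chr7:48235165-48235464, plus strand: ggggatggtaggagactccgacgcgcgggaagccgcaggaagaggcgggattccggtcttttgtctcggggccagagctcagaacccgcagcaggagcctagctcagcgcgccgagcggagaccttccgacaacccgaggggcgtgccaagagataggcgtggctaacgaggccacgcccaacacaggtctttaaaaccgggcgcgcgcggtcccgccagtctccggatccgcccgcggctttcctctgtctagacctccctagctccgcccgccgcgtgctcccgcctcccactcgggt
Des, chr9:84299376-84299675, plus strand: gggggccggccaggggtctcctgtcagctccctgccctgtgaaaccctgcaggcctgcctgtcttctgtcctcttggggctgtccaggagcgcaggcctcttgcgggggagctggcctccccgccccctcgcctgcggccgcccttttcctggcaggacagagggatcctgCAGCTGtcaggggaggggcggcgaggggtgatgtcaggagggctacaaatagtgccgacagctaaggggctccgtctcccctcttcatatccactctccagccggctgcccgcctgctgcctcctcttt
Ttn, chr3:82332061-82332360, minus strand: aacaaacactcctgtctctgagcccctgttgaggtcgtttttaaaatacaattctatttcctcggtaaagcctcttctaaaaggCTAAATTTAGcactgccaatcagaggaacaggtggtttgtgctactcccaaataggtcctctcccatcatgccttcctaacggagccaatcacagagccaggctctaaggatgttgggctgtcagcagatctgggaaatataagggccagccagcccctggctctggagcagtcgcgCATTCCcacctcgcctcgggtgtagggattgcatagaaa
Both strands were searched. The MCAT motif was spelled CATTCC. The muscle E-box was spelled CAGCTG. The TATA box was spelled TATAAA. The MEF2 box and the CArG box were searched by their usual consensus. No 2 of the matches overlapped. Des held CAGCTG, 79 bases before the start, a run found in 15.1% of the 33469 rat promoters of this length. Ttn held a MEF2 box, 166 bases before the start, and CATTCC 11 bases after it, found in 3.29% and 14.2% of promoters. Csrp2 held none of the 5. TATAAA and the CArG box, in 14.2% and 1.64% of promoters, were found in none of the 3. These matches describe letters and were not tied to any measurement.

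All intensities below are the deposited model-based values, on a linear scale, and each effect is the log2 difference ± SE between a hypertrophic group and its own controls from a limma fit of all 20 groups. Calls were made at an adjusted p below 0.05 (Benjamini-Hochberg over all 8740 probe sets). Averaged over the 10 hypertrophic groups, 7 of the 9 member probe sets were called higher and 0 lower. Over all probe sets 3.64% were called higher and 1.57% lower, 5.21% in all. The genes had been picked with earlier results of these arrays known, and Csrp2 and Sorbs2 are in a list the study chose on these arrays, so the share is a description. The 7 belong to Csrp2, Csrp3, Ankrd1, Des and Sorbs2 (all 3 probe sets). Tcap and Ttn were not called. The average weights the 10 groups equally, so that banding supplies 4 of them. With the 5 models weighted equally, Csrp2 and 1 Sorbs2 probe set were still called, and Ankrd1 (0.12, adjusted p = 0.485), Des (0.17, adjusted p = 0.385), Csrp3 (0.22, adjusted p = 0.133) and the other 2 Sorbs2 probe sets (0.26 and 0.20, adjusted p = 0.0966 and 0.242) were not. After quantile normalization the equally weighted Ankrd1 value was 0.29 and was called (limma adjusted p = 0.000235). In bulk tissue, more RNA per cell and more cells of a type cannot be told apart.

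**Figure D1:**
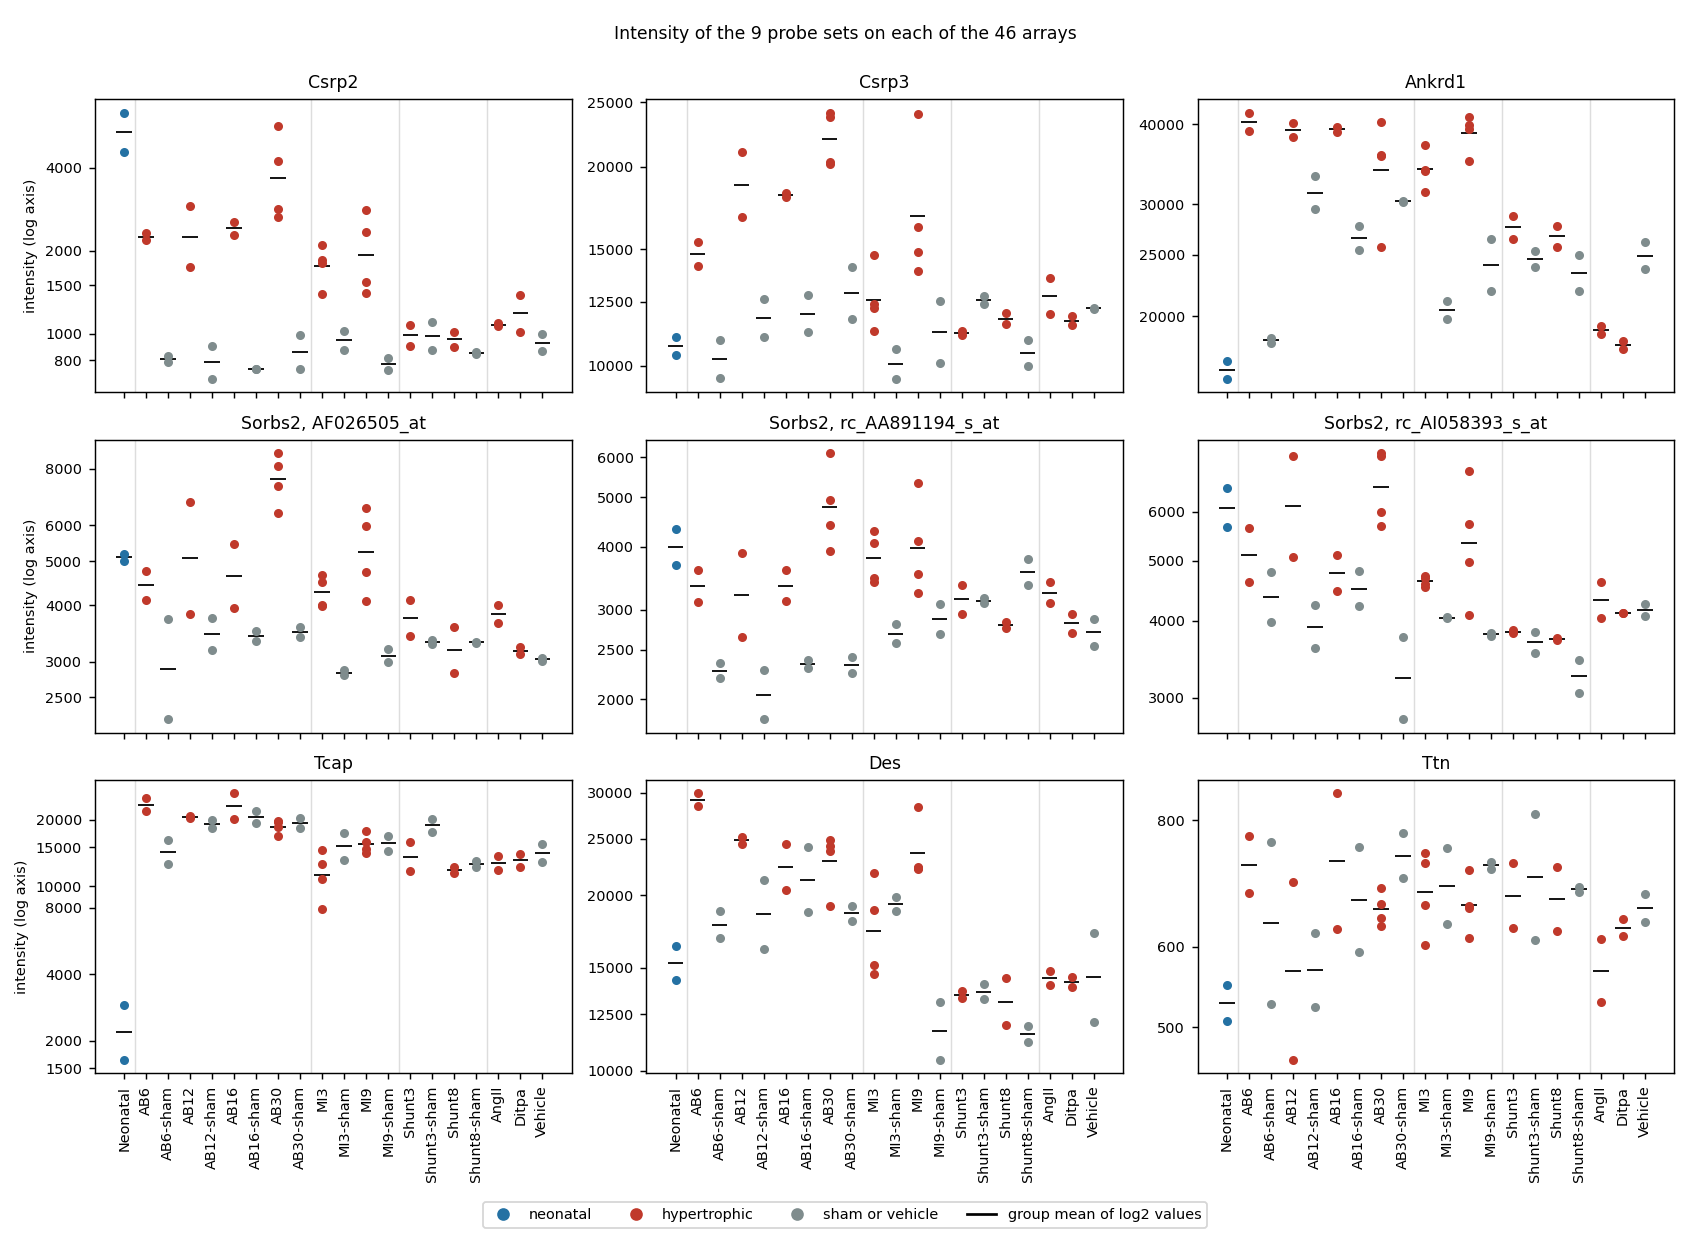
Intensity (log axis) of the 9 member probe sets on each of the 46 arrays; points are arrays, black bars the group mean of log2 values, and each hypertrophic group stands left of its own sham or vehicle group. All 18 arrays of banding and infarction lie above all 18 control arrays for Csrp2, and both neonatal arrays lie far below all controls for Tcap. The shares of all probe sets that separate in these ways were not counted.

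Csrp2, a LIM-domain protein (CRP2, also called SmLIM) best known from vascular smooth muscle, had the largest effect of the 9 in the average (0.97 ± 0.0929 log2, 1.96-fold, limma adjusted p = 8.82e-09) and was above the mean of its own controls on 25 of 26 hypertrophic arrays. In banded hearts its intensity was 2311 and 2188 at 6 weeks, against 830 and 787 in shams. At 12 weeks it was 1743 and 2900 in banded hearts, against 684 and 904 in shams. At 16 weeks it was 2544 and 2287 in banded hearts, against 745 and 743 in shams. Banded arrays lay above their shams at all 3 times, as 20.4%, 10.1% and 26.8% of all probe sets did at 6, 12 and 16 weeks. At 30 weeks banded hearts had 4214, 5647, 2649 and 2841, against 993 and 747 in shams, again without overlap (11.4% of all probe sets had all 4 banded arrays above their shams), and the first pair of banded arrays stood above the second. The effect was 1.48 ± 0.29, 1.51 ± 0.29, 1.70 ± 0.29 and 2.09 ± 0.251 at 6, 12, 16 and 30 weeks (adjusted p = 0.00735, 0.00823, 0.0018 and 2.7e-06). Although these values step upward with time, the 30-week effect exceeded the 6-week one by 0.61 ± 0.384, which was not called (adjusted p = 0.802). The call at 6 weeks was lost without either banded array (adjusted p = 0.12 and 0.0579), and that at 12 weeks without sham array 3 (0.0621) or banded array 2 (0.0643), numbered as in the sample titles.

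After infarction Csrp2 was also above its own shams at both times. It was 1801, 1394, 1855 and 2093 at 3 weeks, against 876 and 1027 in shams, and 2802, 2331, 1539 and 1403 at 9 weeks, against 819 and 738 in shams. At 3 and 9 weeks, 8.48% and 13.7% of all probe sets had all infarction arrays above their own shams. The 3-week difference was 0.90 ± 0.251 and was not called (adjusted p = 0.219). The 9-week difference was 1.32 ± 0.251 (adjusted p = 0.00458), and was not called without sham array 5 (0.0506) or sham array 6 (0.0729). Shunt hearts lay within the range of controls, with 1079 and 902 at 3 weeks, against 874 and 1103 in shams, and 896 and 1014 at 8 weeks, against 860 and 843 in shams. The shunt effect over both times was 0.09 ± 0.205 (adjusted p = 0.977). AngII hearts had 1090 and 1064 and Ditpa hearts 1387 and 1011, against 995 and 865 with vehicle. The differences of 0.22 ± 0.29 and 0.35 ± 0.29 had adjusted p-values of 1. The difference of the Csrp2 effect between the 5 models was itself called (limma moderated F, adjusted p = 0.00211), among 0.275% of all probe sets.

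Markers of other cells moved in the same models. Over all probe sets 3.28% were called higher in banding and 1.70% in infarction. Of 9 fibroblast markers 6 were higher in banding and 6 in infarction. Their summed intensity ran from 35248 to 58361 on banding arrays, against 29711 to 43098 on their shams, and from 53384 to 102110 on infarction arrays, against 48958 to 58355 on their shams. Of 4 smooth muscle markers 1 was called in banding and 0 in infarction, with sums of 9209 to 13674 on banding arrays, against 9381 to 10871 on shams, and of 9339 to 12321 on infarction arrays, against 10122 to 10902 on shams. Of 5 macrophage markers 1 was higher in banding and 3 in infarction. No marker in these lists was at 0 in any group. Their part in the Csrp2 result was not tested.

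Csrp3, the muscle LIM protein of cardiomyocytes, had smaller log2 differences in every banded group and in both infarction groups. In banded hearts it was 14141 and 15383 at 6 weeks, against 10948 and 9596 in shams. At 12 weeks it was 16765 and 21025 in banded hearts, against 11069 and 12612 in shams. At 16 weeks it was 17973 and 18235 in banded hearts, against 11237 and 12792 in shams. At each of these times the banded arrays were above their shams, as were those of 20.4%, 10.1% and 26.8% of all probe sets, and no difference was called (0.53, 0.67 and 0.59 log2, adjusted p = 0.225, 0.0863 and 0.121). At 30 weeks it reached 24140, 23811, 20313 and 20188 in banded hearts, against 11767 and 14116 in shams, a difference of 0.77 ± 0.146 that was called (adjusted p = 0.00308). Without sham array 5 the difference was 0.64 and was not called. Infarcted hearts had 11301, 12215, 12387 and 14729 at 3 weeks, against 9553 and 10607 in shams, and 23994, 14878, 16205 and 13931 at 9 weeks, against 10099 and 12541 in shams. The first of the 9-week arrays stood well above the other 3. The 9-week effect was 0.58 ± 0.146 (adjusted p = 0.0325) and was lost after quantile normalization (0.39, adjusted p = 0.0849) and without that array (0.41, adjusted p = 0.117). In the shunt, AngII and Ditpa groups the effects lay between -0.17 and 0.17, with none called. Over all banded groups Csrp3 was higher by 0.64 ± 0.0819 (adjusted p = 2.6e-06) and over infarction by 0.45 ± 0.104 (adjusted p = 0.0123). The infarction call was lost without 3-week sham array 1 (0.42) or 9-week sham array 5 (0.37).

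Across the 26 hypertrophic arrays, each taken as its log2 difference from the mean of its own controls, the pattern most like that of Csrp2 was that of Gnao1, a G protein alpha subunit (Pearson r = 0.91), followed by Csrp3 (0.91) and Akip1, a binding partner of protein kinase A (0.90). For Csrp3 the nearest were Csrp2, Akip1 (0.89) and Acta1, the skeletal alpha-actin of fetal and overloaded hearts (0.88). The 26 points share control arrays in groups and the scale of each array, so these values only describe likeness.

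The counts of member probe sets called at single times differed between models and between times of a model. Groups with 4 hypertrophic arrays (30 weeks of banding and both infarction times) had smaller SE than groups with 2. In banding 2 of 9 were higher at 6 weeks, 1 at 12, 2 at 16 and 5 at 30 weeks, where 0.469%, 0.252%, 0.217% and 0.950% of all probe sets were called higher. In infarction 1 of 9 was higher at 3 weeks and 5 at 9 weeks, against 0.206% and 1.69% of all probe sets called higher, and 1.92% called at 9 weeks in either direction. In shunt hearts 0 were called at 3 or 8 weeks (limma). There 0 and 0.0458% of all probe sets were called, 0.0343% higher at 8 weeks. At an unadjusted limma p under 0.05 there was 1 member probe set at 3 weeks (Tcap, lower) and 0 at 8 weeks. With AngII and with Ditpa 0 were called, as were 0 of all probe sets. At an unadjusted limma p under 0.05 there was 1 with each, Ankrd1, which was lower in both (-0.39 and -0.46). With limma array weights 1 was called with each. The shares of all probe sets under these looser settings are not given here. Taken over the whole model, 7 of 9 were called in banding, 6 in infarction and 0 in the shunt, against 3.28%, 1.70% and 0.0458% of all probe sets called higher. In banding 1.98% of all were called lower, 5.26% in all. After quantile normalization the counts were 6 in banding and 5 in infarction. The spread came from all 20 groups. When only the 6 arrays of a comparison entered the fit, 0 of 9 were called at 30 weeks of banding and 0 at 9 weeks of infarction. Without sham array 5 the 9-week infarction count was 0, and the count over both infarction times 3, and without sham array 6 it was 2. Without MI array 1 it was 3, and without sham array 5 of the 30-week banding group the count there was 2.

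**Figure D2:**
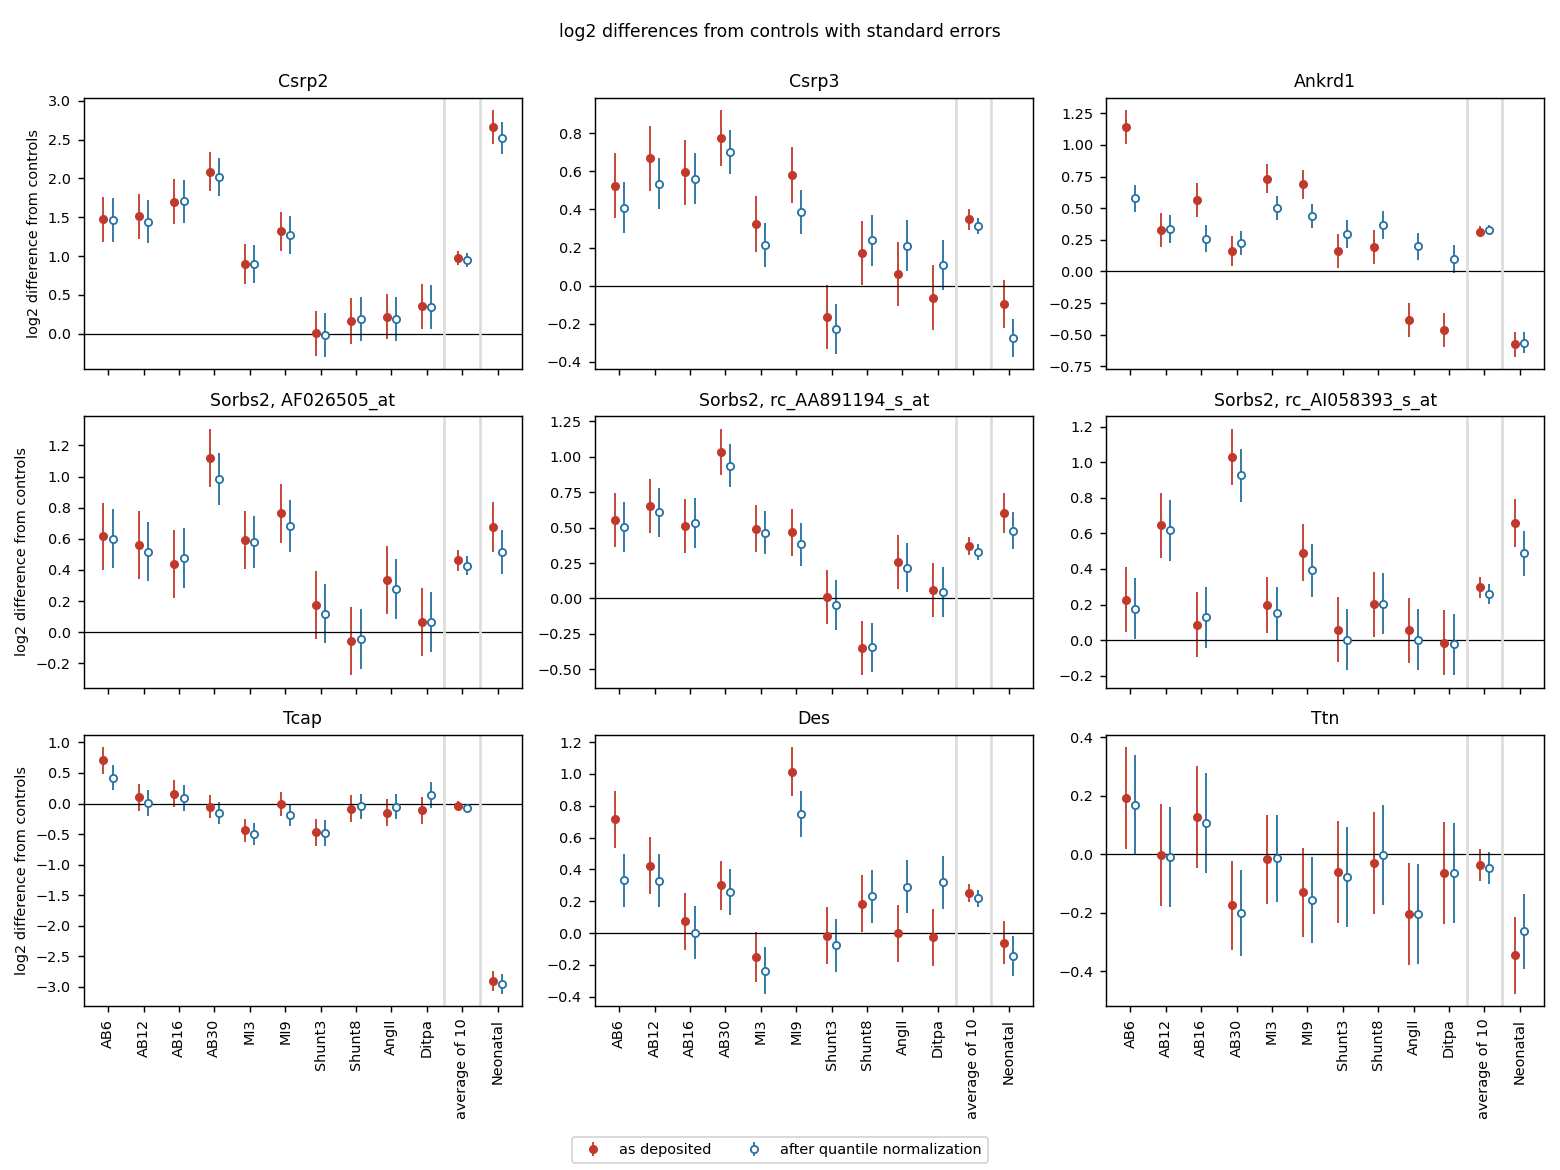
Log2 difference from controls with its SE for each hypertrophic group, for the average of the 10 groups, and for neonatal against adult controls (red, as deposited; blue open, after quantile normalization). The Csrp2 average is 0.97 as deposited and 0.95 after normalization, while the Ankrd1 differences with AngII and Ditpa move from -0.39 and -0.46 to 0.20 and 0.10. None of these Ankrd1 differences was called.

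Ankrd1, the cardiac ankyrin repeat protein that binds titin and is induced by load, was among the brightest signals, above the 97th percentile of every array. In banded hearts it was 39085 and 41760 at 6 weeks, against 18525 and 18136 in shams. At 12 weeks it was 38222 and 40284 in banded hearts, against 29458 and 33187 in shams. At 16 weeks it was 38949 and 39635 in banded hearts, against 25439 and 27679 in shams. At 30 weeks it was 40342, 35815, 35707 and 25647 in banded hearts, against 30362 and 30232 in shams, so that the groups overlapped. The banded arrays up to 16 weeks stayed between 38222 and 41760 while the sham arrays varied from 18136 to 33187. The effects were 1.14 ± 0.134, 0.33 ± 0.134, 0.57 ± 0.134 and 0.16 ± 0.116 at 6, 12, 16 and 30 weeks, of which those at 6 weeks (adjusted p = 4.41e-06) and 16 weeks (0.0418) were called. After quantile normalization the 6-week effect was 0.58 (adjusted p = 0.00445), and the brightest 174 probe sets, Ankrd1 among them, had a median of 0.39 at 6 weeks as deposited and -0.01 after it. Quantile normalization gives all arrays the same distribution, so it removes such a shift of the brightest probe sets whatever its source. At 16 weeks quantile normalization ended the call (adjusted p = 0.299), as did 10 of the 46 fits that left out 1 array, each array of that group and its shams among them. After infarction the values were 31380, 33803, 33953 and 37179 at 3 weeks, against 19815 and 21122 in shams, and 39938, 35027, 41053 and 39354 at 9 weeks, against 21902 and 26423 in shams. All infarction arrays lay above their shams, as in 8.48% and 13.7% of all probe sets at 3 and 9 weeks, and both differences were called (0.73 ± 0.116, adjusted p = 0.000701, and 0.69 ± 0.116, adjusted p = 0.000974), and remained so after quantile normalization (0.50 and 0.44, adjusted p = 0.0109 and 0.0148). The 9-week call was lost without sham array 5 (0.55, adjusted p = 0.131). Shunt hearts had 26472 and 28787 at 3 weeks, against 23908 and 25358 in shams, and 27753 and 25719 at 8 weeks, against 21948 and 24922 in shams. All 4 shunt arrays were above their shams, as in 20.9% and 20.8% of all probe sets at 3 and 8 weeks, and neither difference was called (0.16 and 0.19 log2, adjusted p = 0.817 and 1).

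With the hormones Ankrd1 was lower on the deposited scale. AngII hearts had 18748 and 19346 and Ditpa hearts 17756 and 18302, against 26118 and 23704 with vehicle, differences of -0.39 ± 0.134 and -0.46 ± 0.134 that were not called (adjusted p = 0.639 and 0.359). The whole upper range of these 4 arrays was low. Their 99th percentile of intensity was 17174 to 17587, against 22493 and 25836 on the vehicle arrays, and 19141 to 30977 on the surgical arrays. Within each array, Ankrd1 ranked 62 and 51 with AngII and 74 and 67 with Ditpa, against 86 and 79 with vehicle, counting from the brightest of 8740, so that by rank it was higher with both treatments. After quantile normalization its differences were 0.20 and 0.10, neither of them called. The share of all probe sets that rank higher in this way was not counted. The brightest 174 probe sets, which include Ankrd1 and Des, had a median difference of -0.50 with AngII and -0.52 with Ditpa as deposited, and of -0.02 and -0.03 after quantile normalization, and 11 cardiomyocyte markers had a median of -0.61 with each as deposited. The small medians after quantile normalization are set by the method and do not show whether the bright transcripts changed. Whether the compressed range is a property of these hearts or of these arrays cannot be told apart.

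The contrasts of Ankrd1 between models moved with the same scaling. The effect of the surgical models exceeded that of the hormones by 0.90 ± 0.125 log2 (adjusted p = 8.41e-05, 1 of the 9 member probe sets and 0.217% of all called higher), and by 0.24 after quantile normalization (adjusted p = 1). The difference between the 5 models was called for Ankrd1 (moderated F, adjusted p = 9.22e-05) and not after quantile normalization (0.965). The 30-week banding effect was below the 6-week effect by 0.98 log2 (-0.98 ± 0.177, adjusted p = 0.0422). That was the 1 probe set called among 8740, or 0.0114%. It became -0.35 (adjusted p = 0.605) after quantile normalization, and the call was lost in 30 of the 46 fits that left out 1 array. The brightest 174 probe sets had a median of -0.45 in that contrast as deposited and, by construction, of -0.01 after quantile normalization. The 9-week infarction effect differed from the 3-week one by -0.04 ± 0.164 (adjusted p = 0.997). Over all banding times Ankrd1 was higher by 0.55 ± 0.0648 (limma adjusted p = 6.44e-07), and over infarction by 0.71 ± 0.082 (1.22e-06). Both calls remained after quantile normalization (0.35 and 0.47, adjusted p = 3.4e-05 and 5.4e-05).

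**Figure D3:**
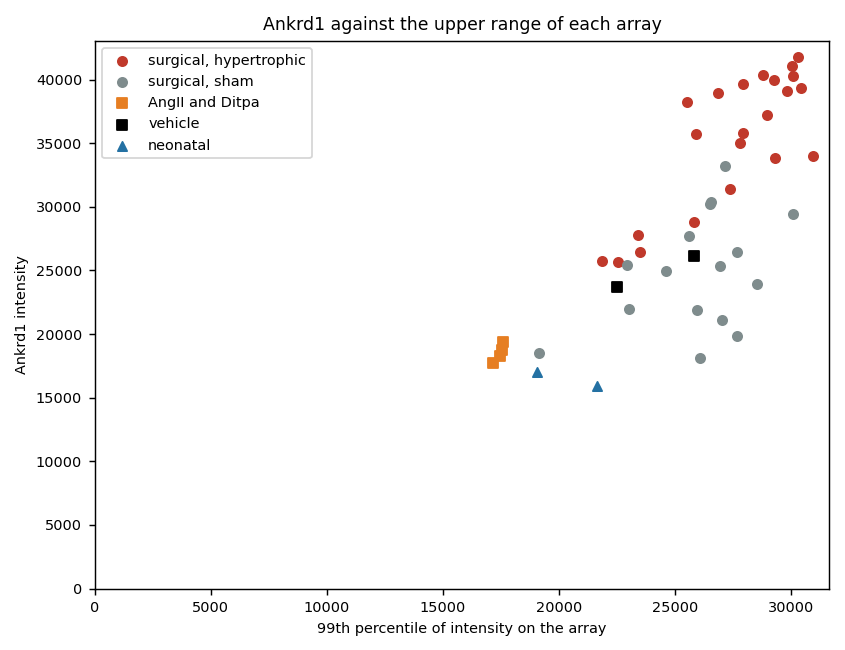
Ankrd1 intensity against the 99th percentile of intensity on the same array, 1 point per array, linear axes from 0. The 4 AngII and Ditpa arrays have both the lowest upper range (17174 to 17587) and Ankrd1 between 17756 and 19346, while the surgical hypertrophic arrays lie between 25647 and 41760. The neonatal arrays have Ankrd1 of 15940 and 17034 at upper ranges of 21635 and 19049. Sham arrays 3 and 4 of 6-week banding have 18525 and 18136 at 19141 and 26109.

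The genes whose differences ran most like those of Ankrd1 over the 26 arrays were Hspb6, a small heat shock protein of muscle (r = 0.97), Clu, the secreted chaperone clusterin (0.95), and Cryab, the chaperone of desmin and titin (0.94). These differences are on the deposited scale and share the scale of each array, with which those of Ankrd1 moved. No correlation was computed after quantile normalization.

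Sorbs2, the adaptor ArgBP2, was measured by 3 probe sets, which share the gene and are not replicates. Their levels cannot be set against each other. At 30 weeks of banding AF026505_at was 8126, 8686, 6395 and 7329 in banded hearts, against 3402 and 3582 in shams. There rc_AA891194_s_at was 4942, 6123, 3914 and 4410 in banded hearts, against 2252 and 2422 in shams. The probe set rc_AI058393_s_at was 7387, 7482, 5689 and 6006 in banded hearts, against 2766 and 3762 in shams. Each lay above its shams on all 4 banded arrays, as 11.4% of all probe sets did, and all were called, at 1.12 ± 0.189, 1.03 ± 0.165 and 1.03 ± 0.158 log2 (adjusted p = 0.000755, 0.000333 and 0.000219). Without sham array 5 AF026505_at and rc_AI058393_s_at were not (adjusted p = 0.0625 and 0.102). At the earlier banding times the effects ran from 0.09 to 0.65 over the 3 probe sets with none called, and the lowest, of rc_AI058393_s_at at 16 weeks, came from overlapping arrays (5119 and 4471 in banded hearts, against 4224 and 4810 in shams).

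After infarction AF026505_at was 4496, 3995, 3974 and 4661 at 3 weeks, against 2798 and 2868 in shams, and 6562, 4730, 5993 and 4086 at 9 weeks, against 2995 and 3191 in shams. It was called at 9 weeks (0.76 ± 0.189, adjusted p = 0.0294) and not at 3 (0.59 ± 0.189, adjusted p = 0.408). The 9-week call was lost without sham array 5 (adjusted p = 0.324), sham array 6 (0.134), MI array 1 (0.113) or MI array 3 (0.08). The other 2 probe sets were above their shams on all infarction arrays (8.48% and 13.7% of all probe sets at 3 and 9 weeks) without a call at either time, by 0.20 to 0.49. The shunt effects over both times were 0.06, -0.17 and 0.13, and those of AngII 0.34, 0.26 and 0.05 and of Ditpa 0.07, 0.06 and -0.01, none called. In the average effect the 3 stood at 0.46 ± 0.0698, 0.37 ± 0.061 and 0.30 ± 0.0584 (adjusted p = 4.83e-05, 0.000154 and 0.00119), above their own controls on 25, 22 and 22 of 26 arrays. The study's methods name a rank sum test on log fold changes. Run here as an exact test of 26 hypertrophic against 18 control ratios, a layout the methods do not spell out, Csrp2 and AF026505_at passed Bonferroni (p = 2.26e-08 and 6.71e-08, threshold 5.72e-06) among the 9, and 1.34% of all probe sets passed. Each control ratio was taken against the mean of its own pair, and the hypertrophic ratios of a group share their controls. The ratios are therefore not independent, and these rank sum p-values only describe. Most like rc_AI058393_s_at, used for likeness because its mean signal was the highest, were Samd1, a CpG island binding protein (r = 0.84), Hk1, the hexokinase (0.84), and Ncam1, a neural cell adhesion molecule (0.84).

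Des, the intermediate filament of muscle, varied more between control groups than any other member (SD of the control group means 0.33 log2). In banded hearts it was 28439 and 29946 at 6 weeks, against 16869 and 18754 in shams, and 24509 and 25188 at 12 weeks, against 21260 and 16182 in shams. At 16 weeks it was 24468 and 20421 in banded hearts, against 18686 and 24174 in shams, and at 30 weeks 24912, 24283, 23799 and 19187, against 18081 and 19154 in shams. Banded arrays overlapped with shams at 16 weeks and lay above them at the other times. So did those of 20.4%, 10.1% and 11.4% of all probe sets at 6, 12 and 30 weeks. The effects were 0.71, 0.42, 0.07 and 0.30, none called (adjusted p = 0.0543, 0.448, 0.916 and 0.5), while their mean was 0.38 ± 0.0866 (adjusted p = 0.00619) and 0.23 after quantile normalization (0.0936). At 9 weeks of infarction Des was 28320, 22282, 22379 and 22168, against 10438 and 13129 in shams, a difference of 1.01 ± 0.155 (2.02-fold, adjusted p = 0.000249). The sham array at 10438 was the lowest control of the series for Des. At 3 weeks it was 21869, 18852, 15176 and 14626, against 19856 and 18800 in shams, with overlap (-0.15 ± 0.155, adjusted p = 1). The 9-week effect exceeded the 3-week effect by 1.17 ± 0.219, which was not called over all probe sets (adjusted p = 0.0739; 0 of 8740 were), and by 0.98 after quantile normalization (0.334). The 9-week call was lost by a narrow margin without sham array 5 (0.85, adjusted p = 0.0506). Over both infarction times Des was higher by 0.43 ± 0.11 (adjusted p = 0.0274), a call lost after quantile normalization (0.26, adjusted p = 0.277) and in 6 of the 46 fits that left out 1 array.

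Des in the shunt was close to its controls, at 13680 and 13324 after 3 weeks, against 13249 and 14063 in shams, and 11967 and 14422 after 8 weeks, against 11183 and 11945 in shams. AngII hearts had 14809 and 14050 and Ditpa hearts 14486 and 13907, against 12126 and 17223 with vehicle, whose 2 arrays enclosed all 4. After quantile normalization these differences were 0.29 and 0.32, against 0.00 and -0.03 as deposited, none called. The average call for Des (0.25 ± 0.0573, adjusted p = 0.00559) was lost without vehicle array 1 (0.20, adjusted p = 0.0626). Nearest to Des in pattern were Pam, which amidates peptide hormones (r = 0.89), Gna12, a G protein alpha subunit (0.84), and Eef2, the translation elongation factor (0.83).

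Tcap and Ttn did not pass in the average (-0.03 ± 0.0704 and -0.04 ± 0.056, adjusted p = 0.87 and 0.821) or in any hypertrophic group. Tcap was 25000 and 21858 at 6 weeks of banding, against 12670 and 16217 in shams (0.71 ± 0.22, adjusted p = 0.203), above its shams as 20.4% of all probe sets were. It was 14619, 12584, 10798 and 7931 at 3 weeks of infarction, against 13207 and 17460 in shams, where the lowest array was the lowest of all adult hearts (-0.44 ± 0.19, adjusted p = 0.94). In the remaining groups its effect lay between -0.47, at 3 weeks of the shunt, and 0.16. The Ttn probe set was dim, from 465 to 851 on hypertrophic arrays and 524 to 811 on control arrays, near the 32nd percentile of an array, although titin mRNA is known to be abundant in heart. How well it reports the transcript was not tested. Its effects ran from -0.21 to 0.19. The patterns most like these 2 were weaker matches, with Emc8 (r = 0.76), Penk (0.71) and Capns1 (0.71) for Tcap, and Hal (0.80), Dnase1 (0.79) and LOC102548459 (0.78) for Ttn.

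In neonatal against adult control hearts, 7 of the 9 member probe sets were called, 4 higher and 3 lower. This contrast called 32.6% of all probe sets, 15.5% higher and 17.0% lower, and it compares 2 pools of another age with 18 adult ones. Tcap showed the largest difference, with 2917 and 1644 on the neonatal arrays, against 12270 to 21879 (median 17200) on the 18 control arrays. The effect of -2.91 ± 0.164 is a 7.51-fold lower level (adjusted p = 4.58e-15) and was -2.95 after quantile normalization. By rank, neonatal Tcap stood at the 67th and 82nd percentile, against the 97th to 98th in controls. Of the 11 cardiomyocyte markers 10 were lower in neonates as deposited, with a median of -0.66, and 1 after quantile normalization, with a median of 0.00. Quantile normalization removes a shift that the brightest probe sets share, so the second median cannot show whether these markers fell together.

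Csrp2 went the other way, with 4564 and 6341 in neonates, against 684 to 1103 (median 851) in adult controls (2.66 ± 0.216, 6.33-fold, adjusted p = 3.09e-11). The neonatal values were of the size of the brightest 30-week banded arrays, 4214 and 5647. The 3 Sorbs2 probe sets were higher by 0.68 ± 0.162, 0.60 ± 0.142 and 0.66 ± 0.136 (adjusted p = 0.00161, 0.00132 and 0.00032). For rc_AI058393_s_at the neonatal arrays read 5671 and 6559, against 2766 to 4810 in controls. The second Sorbs2 probe set lost its call without neonatal array 2 (adjusted p = 0.0789). Ankrd1 was lower, at 15940 and 17034, against 18136 to 33187 in controls (-0.58 ± 0.0998, adjusted p = 3.56e-05; -0.56 after quantile normalization). Ttn was lower at 507 and 551, against 524 to 811 in controls (-0.35 ± 0.13, adjusted p = 0.0401), a call lost after quantile normalization (-0.26, adjusted p = 0.119) and without either neonatal array.

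Csrp3 and Des were not called in neonates. Csrp3 was 10376 and 11058, against 9553 to 14116 in controls (-0.10 ± 0.126, adjusted p = 0.594), and passed as lower after quantile normalization (-0.28, adjusted p = 0.0338). Des was 16364 and 14320, against 10438 to 24174 in controls (-0.06 ± 0.133, adjusted p = 0.769). The hypertrophic and neonatal contrasts share the control arrays and were not compared by a test. Side by side, the banding and neonatal effects were 1.69 and 2.66 for Csrp2, 0.64 and -0.10 for Csrp3, 0.55 and -0.58 for Ankrd1, and 0.23 and -2.91 for Tcap. For the 3 Sorbs2 probe sets they were 0.68 and 0.68, 0.69 and 0.60, and 0.50 and 0.66. For Des they were 0.38 and -0.06, and for Ttn 0.04 and -0.35. Fibroblast markers were higher in neonates for 5 of 9 and lower for 1, with sums of 54151 to 84014, against 29711 to 58355 in controls, and both atrial markers were higher, with sums of 21646 to 24845, against 3258 to 8663 in controls. Their part in the neonatal values was not tested.

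Other genes of the same structures mostly did not pass. In the average effect 3.64% of all probe sets were called higher and 1.57% lower. Of 19 other Z-disc genes measured, 1 was higher in the average effect (Flnc, the Z-disc filamin, 0.21 ± 0.0549, adjusted p = 0.0152), 1 lower (Fhl2, a LIM protein that binds titin, -0.23 ± 0.0478, adjusted p = 0.00271) and 17 were not called, with a list median of 0.02, against 0.01 over all probe sets. Flnc stood at 0.43 ± 0.083 in banding (adjusted p = 0.000949). Fhl2 stood at -0.46 with AngII and -0.51 with Ditpa, where the bright probe sets as a whole were low, and its average was still called after quantile normalization (-0.18, adjusted p = 0.015). Of 6 titin partners and M-band genes, 1 was lower (Trim63, the muscle ubiquitin ligase MuRF1) and 5 were not called. Of 20 genes of the desmin network and the costamere, where Z-discs attach to the membrane, 2 were higher and 18 not called. The 2 were Vim, the intermediate filament of mesenchymal cells (0.44 ± 0.105 in banding and 0.82 ± 0.132 in infarction, adjusted p = 0.00871 and 0.000351), and Itgb1, the beta 1 integrin (0.49 ± 0.134 in banding, adjusted p = 0.0254). Of 23 genes known to be induced by stretch, 5 were higher in the average effect and 18 not called, with a list median of 0.10. They were Nppa and Nppb, the natriuretic peptides, Acta1, Timp1, an inhibitor of matrix proteases, and Ier3, an immediate early gene (0.14 ± 0.0392, adjusted p = 0.0238). In the shunt, where no member was called, Nppa was (1.32 ± 0.183, adjusted p = 0.000245), and Acta1 (0.73 ± 0.168) and Nppb (0.60 ± 0.184) were not (adjusted p = 0.111 and 0.381).

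**Figure D4:**
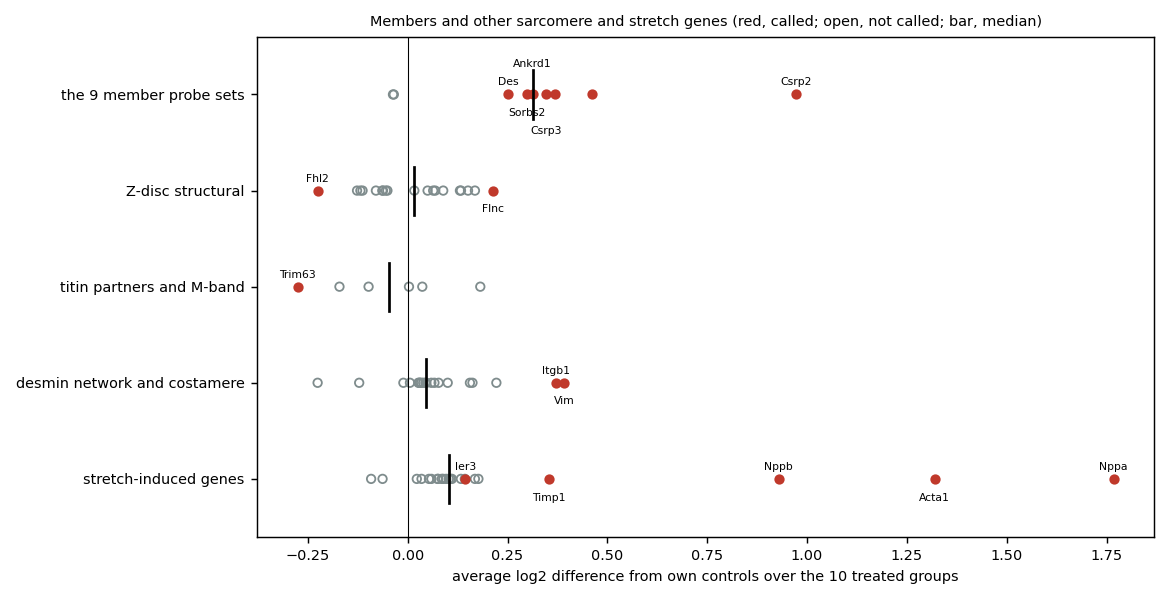
Average log2 difference over the 10 hypertrophic groups for the 9 member probe sets and for the other genes of 4 lists, 1 point per probe set (red, called; open, not called; bar, median). The members have a median of 0.31, and the 4 lists have medians between -0.05 and 0.10.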

How the data were processed

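Ventricular RNA pools were measured on 46 Affymetrix arrays. The authors scaled the arrays by invariant rank and computed model-based expression from perfect match probes; the deposited values are one intensity per probe set on a linear scale, with 8740 probe sets. No raw probe data were used, so background correction and scaling are the authors'. Of the probe sets, 7006 carried 1 gene symbol, 308 several and 1426 none in the platform annotation. The members and gene lists were chosen with earlier results of these data known. Values under 16 were raised to 16 (122 values), log2 was taken, and limma 3.58.1 in R 4.3.3 fitted the mean of each of 20 groups, after the fit was tested on simulated data. Contrasts were each hypertrophic group minus its own controls, their averages, differences between models and times, and neonatal minus the mean of the 9 control groups. Adjusted p-values are Benjamini-Hochberg over all probe sets, with 0.05 as the threshold. A gene with several probe sets in a list is given by the brightest. Named list genes are those called in the average effect, and likeness names the 3 highest correlations per member. Alternatives were quantile and median scaling, floors of 1 and 64, the brighter probe sets only, limma's trend and robust options, array weights, a replicate block, each array left out, other weightings and controls, and the rank sum test and ANOVA that the methods name. The number of arrays limits the precision. Array numbers are those of the sample titles.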

Additional observations from a re-analysis of the deposited data

Results flagged for a closer look

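Des in 9 weeks of infarction was flagged because array 1, at an intensity of 28320, stood apart from the other 3 (22168 to 22379): the gap was 0.961 of the group's range, above Dixon's critical value for 4 samples. Chance flags about 1 in 20 groups, and 27 were tested. The same array was also the highest of its group for Csrp2, Csrp3 and all 3 Sorbs2 probe sets.

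The Csrp2 effect differed between the 5 models (moderated F, adjusted p = 0.00211), as did that of Ankrd1 (adjusted p = 9.22e-05). The Ankrd1 effect of the surgical models exceeded that of the hormone models by 0.90 log2, and its 30-week banding effect was below its 6-week effect by -0.98 log2. The 3 Ankrd1 results were not called after quantile normalization.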

How the results depend on the processing

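Csrp2 and the 3 Sorbs2 probe sets kept their average, banding and 30-week banding calls under quantile and median scaling and both floors, and the average count of 7 stayed at 7 under quantile scaling. It became 2 with the 5 models weighted equally and 2 by the rank sum test. With only the arrays of a comparison in the fit, the counts were 0 at 12 weeks, 4 at 16 and 0 at 30 weeks of banding, and 0 at 9 weeks of infarction. With array weights they were 0 at 12 weeks of banding, 4 at 3 weeks of infarction, 1 with AngII, 1 with Ditpa, 2 for surgical minus hormone models, 0 for 30 minus 6 weeks of banding, 1 for 9 minus 3 weeks of infarction and 4 between the 5 models. With the brighter probe sets they were 2 at 12 weeks of banding, 1 for 9 minus 3 weeks of infarction and 4 between models, where the methods' ANOVA passed 1. Under quantile scaling surgical minus hormone models and 30 minus 6 weeks of banding fell to 0, the second also with median scaling (0) and limma's trend and robust options (0). Des in neonates reversed to 0.0831 against the vehicle arrays alone and to 0.0358 without neonatal array 2.

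Leaving out 1 array at a time gave counts of 1 to 3, 0 to 2, 1 to 3 and 2 to 5 at 6, 12, 16 and 30 weeks of banding, 0 to 6 at 9 weeks of infarction, 6 to 7 for the average, 3 to 7 for infarction, 0 to 1 for 30 minus 6 weeks of banding, 0 to 1 for 9 minus 3 weeks of infarction, 5 to 7 in neonates and 2 to 4 between models. Among these, AB12 gave 0 without its sham array 3. Des in neonates ran from -0.157 to 0.0358. A fit that leaves 1 array in a group assumes that it varies like the other groups. AngII, Ditpa and vehicle arrays share numbers, but same-numbered arrays did not deviate together (r = -0.04, -0.06 and -0.08), so the numbers do not pair them. With the replicate block 0 of 9 were called with AngII, 0 with Ditpa and 7 in the average, and no count changed. No dye, slide or scan batch is given in the sources used here.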

Other observations

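In neonatal hearts the other genes of these structures moved in both directions. Of 19 other Z-disc genes 6 were higher, 7 lower and 6 not called, and of 20 desmin network and costamere genes 6 were higher, 1 lower and 13 not called. The neonatal contrast called 15.5% of all probe sets higher and 17.0% lower, so such counts are a description. The genes named next were chosen after their values were seen. Csrp1, another LIM gene of the CRP family, was higher by 1.42 ± 0.179 (adjusted p = 2.2e-07), as was Csrp2, whereas Csrp3 was not called. The PDZ-LIM genes went different ways, with Pdlim5 at 1.41 ± 0.175 and Pdlim3 at 1.04 ± 0.178, against Ldb3 at -0.92 ± 0.124. Itga7, the laminin-binding integrin of striated muscle, was lower by -2.32 ± 0.168 (adjusted p = 2.17e-12) while Itgb1, its partner, was higher by 0.92 ± 0.206. Egr1, an immediate early gene, was lower by -2.08 ± 0.274 (adjusted p = 4.75e-07). All of these kept their sign after quantile normalization.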
